A study of Petromyzon marinus with 6 samples.

Results

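In sea lamprey embryos, 38 groups of assembled sequences had a different leading sequence at days 1 to 2.5 than at days 3 to 5 after fertilization. The species, Petromyzon marinus, is a jawless vertebrate, and RNA of its whole embryos had been sequenced on days 1 and 2 after fertilization, on day 2.5, and on days 3, 4 and 5, with 1 library per stage. The labels name no treatment, strain or genotype, and no source used here gives the spawning or the number of embryos behind a library. The deposited values were estimated fragment counts (expected counts) for assembled contigs, each a reconstructed stretch of transcript. A component is the set of contigs that share an identifier up to its sequence number.

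The 38 components were chosen by their counts. Each had 100 or more counts in each of the 6 libraries. One contig, called the early contig here, held 60% or more of the component's counts at each of days 1, 2 and 2.5. A different contig, called the late contig, held 60% or more at each of days 3, 4 and 5. The 145913 contigs formed 87262 components. Of these, 7663 had 100 counts in every library, and 4119 of those held 2 or more contigs and could switch; they are called eligible. The 38 were 0.923% of the eligible components. Since the rule read the shares themselves, the switch is a description and carries no test. Each stage rests on 1 library, so no difference between stages could be set against a spread between replicates; the intervals given reflect counting error alone.

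An egg is stocked with maternal RNA, which is cleared in early development while transcription of the embryo's own genome takes over. A single gene can give different transcripts at the 2 times, by another start site, another choice of exons or another site of polyadenylation, which can change the untranslated ends, the protein or only the stability of the message. An assembler of short reads collects overlapping sequences into a component. Its contigs can be such transcript forms, but also alleles, close gene copies or fragments of 1 transcript. Contig sequences were not used here. The identifiers carry no gene symbol and had no match in the reference gene table, so what the 38 components encode was not analysed here.

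The libraries held 15503408 to 21910029 counts. Of the eligible components, 2569 lacked a contig at 60% in 1 or more libraries, 1425 had the same main contig in all 6, 85 changed main contig exactly once along the days, and 40 changed more than once. Of the 85 single changes, 38 lay between days 2.5 and 3, which are the components described here. Another 28 fell in the step from day 3 to 4 and 12 in that from day 4 to 5, while the step from day 1 to 2 had 5 and that from day 2 to 2.5 had 2. Among the 40 with several changes, 15 changed main contig at every step except that from day 3 to day 4. Days 1, 2.5 and 5 differed in main contig from the stages next to them, a repeated change and not 1 turn. Changes of main contig were also counted for each step alone, over the components with a main contig at both ends. From day 2.5 to day 3, 168 of 2145 changed, or 7.83%. The 2 steps before it gave 4.34% and 4.06%, and the 2 steps after it 4.35% and 3.85%.

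The late contig was a minor form before the switch and the early contig a minor form after it, as the rule requires. The median share of the late contig was 5.25%, 15.8% and 12.3% at days 1, 2 and 2.5, and 69.9%, 86.4% and 81.5% at the later 3 stages. The largest gain in share fell between days 2.5 and 3 in 36 of the 38 components, as the rule favours, and its median there was 57.2 percentage points, ranging from 25.9 to 88.6. In 1 component the larger gain came from day 1 to day 2, and in another from day 3 to day 4.

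**Figure D1:**
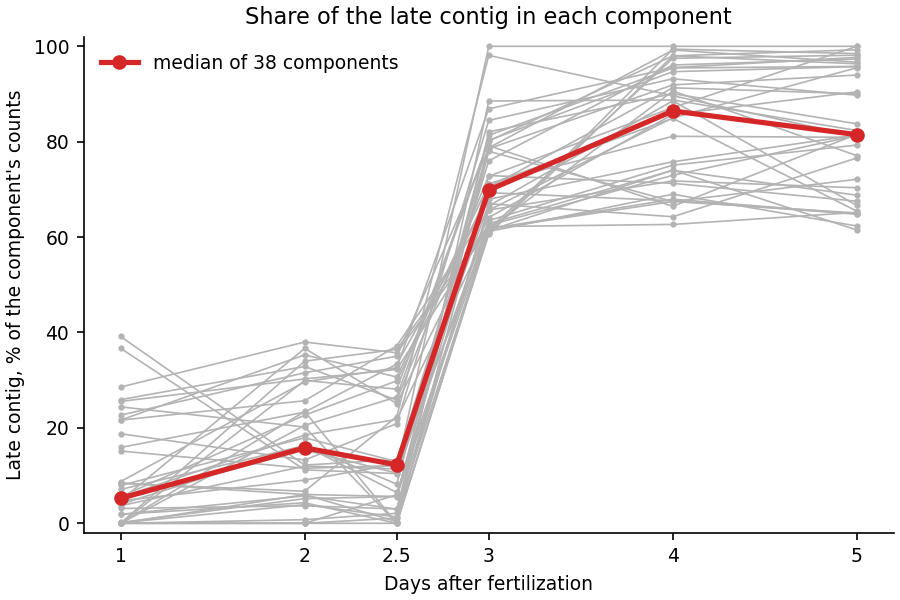
Share of the late contig in its component (%, vertical axis) against days after fertilization (horizontal axis), with 1 grey line for each of the 38 components and their median in red. The median was 12.3% at day 2.5 and 69.9% at day 3, and every grey line was under 40% before and above 60% after this step, as the rule requires.

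The change of main contig often left both contigs present. In 24 of the 38 components both contigs had 3 or more counts in all 6 libraries. The late contig had under 3 counts in 11, 4 and 5 components at the early stages in order, and in 1 component at all of them. The early contig had under 3 counts in 2, 3 and 4 components at the late stages in order. It still held more than 10% of the component in 18 of the 38 at day 5, with a median of 7.76% and a maximum of 36.5%. Contigs other than the early and the late one reached 10% of the component at some stage in 10 members.

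Within the early and the late stages the share did not move steadily. The late share was higher at every successive stage in only 7 of the 38 components. It was higher at day 2 than at both day 1 and day 2.5 in 16. From day 4 to day 5 it was lower in 20 and its median change was -0.57 percentage points.

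All 38 main shares stayed above 50% at the lower limit of the exact 95% Clopper-Pearson interval in every library, the lowest limit being 55.6%, and in 23 members they stayed above 60%. The rule asked for 60% or more of 100 or more counts, so limits above 50% were nearly fixed by the choice of members. The member nearest the share limit had a lowest main share of 60.6%, and 19 members were under 65% at some stage. Just outside, 178 components were led by one contig through day 2.5 and by another from day 3 but missed 60% somewhere, the nearest at 59.9%. Close to the count limit, the member with the fewest counts had 100 in its smallest library. A further 136 components, with 1 or more counts in every library, met the share rule but not the count minimum, the nearest with 96. Many of these were far from the limit: with a minimum of 30 counts, 66 components met the rule, the 38 included.

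The mean level of the late contig was higher after the switch in all 38 components, while that of the early contig was lower in 32. To say which of the 2 contigs moved, each was followed as CPM, that is counts per 1000000 after TMM scaling. The mean over days 3, 4 and 5 was set against the mean over days 1, 2 and 2.5, with 0.5 CPM added to both. The median change was 3.78 on the log2 scale for the late contig and -1.47 for the early contig. The smallest change of a late contig was 0.07. These values come from the contrast that chose the members and are a description. With library totals alone or with the deposited TPM (a relative abundance that RSEM divides by effective length), the late contig was higher in 37 of 38, and over all 4 scalings the early contig was lower in 31 to 33.

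The switches differed in which of the 2 contigs moved more than 4-fold. In 19 of the 38 components the late contig was more than 4-fold higher at the late stages and the early contig stayed within 4-fold. The early contigs of these 19 still had a median log2 change of -1.10, with a range of -1.86 to 1.20. In 8 the late contig was more than 4-fold higher and the early contig more than 4-fold lower, an exchange in the strict sense. In 5 the early contig was more than 4-fold lower while the late contig stayed within 4-fold, its change lying between 0.07 and 1.94 on the log2 scale. In 4 both stayed within 4-fold, and in 2 both were more than 4-fold higher. The sizes of the classes moved with the scaling. The first 3 held 21, 7 and 4 components with DESeq2 size factors, 16, 11 and 7 with library totals, and 15, 13 and 7 with the deposited TPM.

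**Figure D2:**
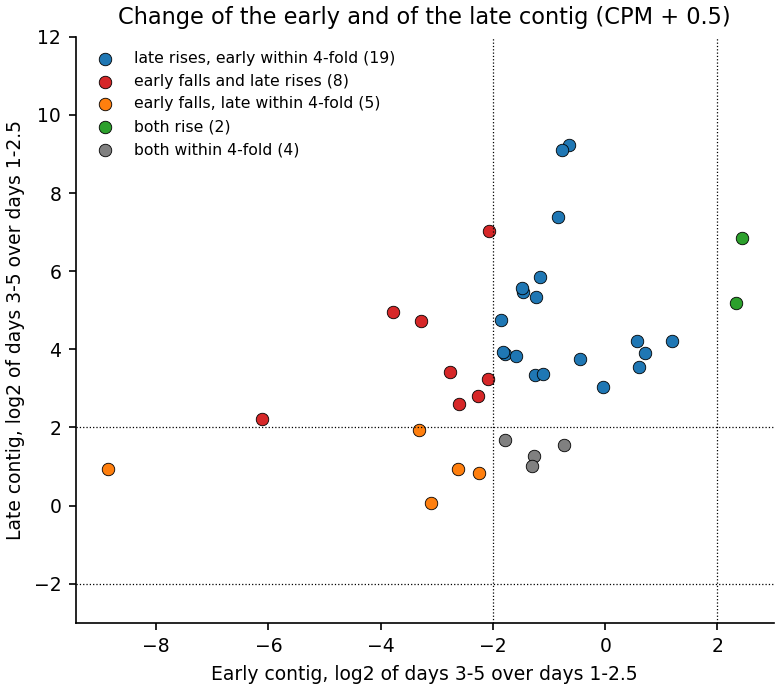
Change of the early contig (horizontal axis) against that of the late contig (vertical axis), each as log2 of mean CPM + 0.5 at days 3 to 5 over days 1 to 2.5, with 1 point per component and dotted lines at 4-fold. The 19 blue points lie above the upper line and between the vertical ones; the 5 orange points lie to the left, between the horizontal lines. The leftmost 2 points have an early contig under 3 counts in each late library, so their position depends on the 0.5 CPM added.

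By mean CPM over days 3 to 5 against days 1 to 2.5, the member that rose most as a whole was lcl|comp292545_c9, of 2 contigs. Its early contig, of 1578 nt, had 19.4, 11.4, 12.7, 11.6, 3.11 and 12.7 CPM over the 6 stages in order. Its late contig, of 3898 nt, had 0 counts at day 1, then 0.728, 0.0447, 18.0, 516 and 818 CPM at the following stages. The value at day 2.5 stood for 0.99 counts, under the limit of 3 counts for detection. The early contig thus stayed near its level apart from day 4, and the late contig overtook it at day 3 without yet exceeding it by much. At day 3 the late contig held 60.8% of the counts, with an interval of 56.5% to 64.9%, and at day 4 it held 99.4%. Whole, the component had 19.4 CPM on the first day and 831 on the last, a 42.8-fold difference (39.1 to 47.0).

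The second was lcl|comp292545_c2, which carries the same component number up to its last part and has contigs of almost the same lengths. Its early contig also measured 1578 nt and its late contig 3901 nt. The early contig had 10.3, 15.7, 24.1, 13.1, 9.33 and 6.29 CPM over the 6 stages, and the late contig had 0.198, 0.703, 0.000452, 20.2, 459 and 838. At day 2.5 the late contig's value stood for 0.01 counts, also under the limit of 3 counts. Whole, it was 80.1-fold higher at day 5 than at day 1 (70.9 to 90.7). The late contigs of the pair had similar levels late, 516 and 459 CPM at day 4 and 818 and 838 at day 5. Contig sequences were not used here, and whether the pair share reads was not tested. By the deposited TPM neither passed the 60% rule, because the longer late contig still held only 37.7% and 37.6% of the component's TPM at day 3.

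The third member by rise, of 5 contigs, had an early contig of 714 nt and a late contig of 1444 nt that were both more than 4-fold higher at the late stages. Its early contig had 4.63, 6.14, 6.96, 25.4, 39.4 and 37.9 CPM over the stages. Its late contig had 0.246, 1.17, 0.834, 124, 96.9 and 207 CPM. The component as a whole was 52.0-fold higher at day 5 than at day 1 (43.4 to 62.7).

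The member that fell most was lcl|comp290609_c1, of 2 contigs and an early form that dropped to 0 counts. Its early contig, of 4568 nt, had 309, 207 and 184 CPM at the early stages and 0 counts at days 3, 4 and 5. Its late contig, of 4978 nt, had 11.8, 28.2, 23.7, 79.6, 24.3 and 20.0 CPM over the 6 stages. Against a floor of 3 counts in each late library the early contig was at least 1225-fold lower. The late contig was high only at day 3, and at days 4 and 5 it lay near its level of days 2 and 2.5. With 3 counts taken as the limit for a count of 0, the early contig could have a share of up to 0.207% of the component at day 3 and up to 1.11% at day 5. The whole component had 320 CPM at day 1 and 20.0 at day 5, which was 0.0624 of the day 1 level (0.0551 to 0.0705).

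The second by fall was lcl|comp293750_c1, of 2 contigs of 5050 and 5116 nt. Its early contig had 140, 170, 124, 45.4, 2.52 and 1.33 CPM from day 1 to day 5. Its late contig had 56.1, 104, 69.0, 73.0, 97.8 and 70.1 CPM. The late contig thus kept between 56.1 and 104 CPM and came to lead as the early contig dropped, holding 61.6% at day 3 and 97.5% at day 4. This was the member with its larger gain between days 3 and 4.

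**Figure D3:**
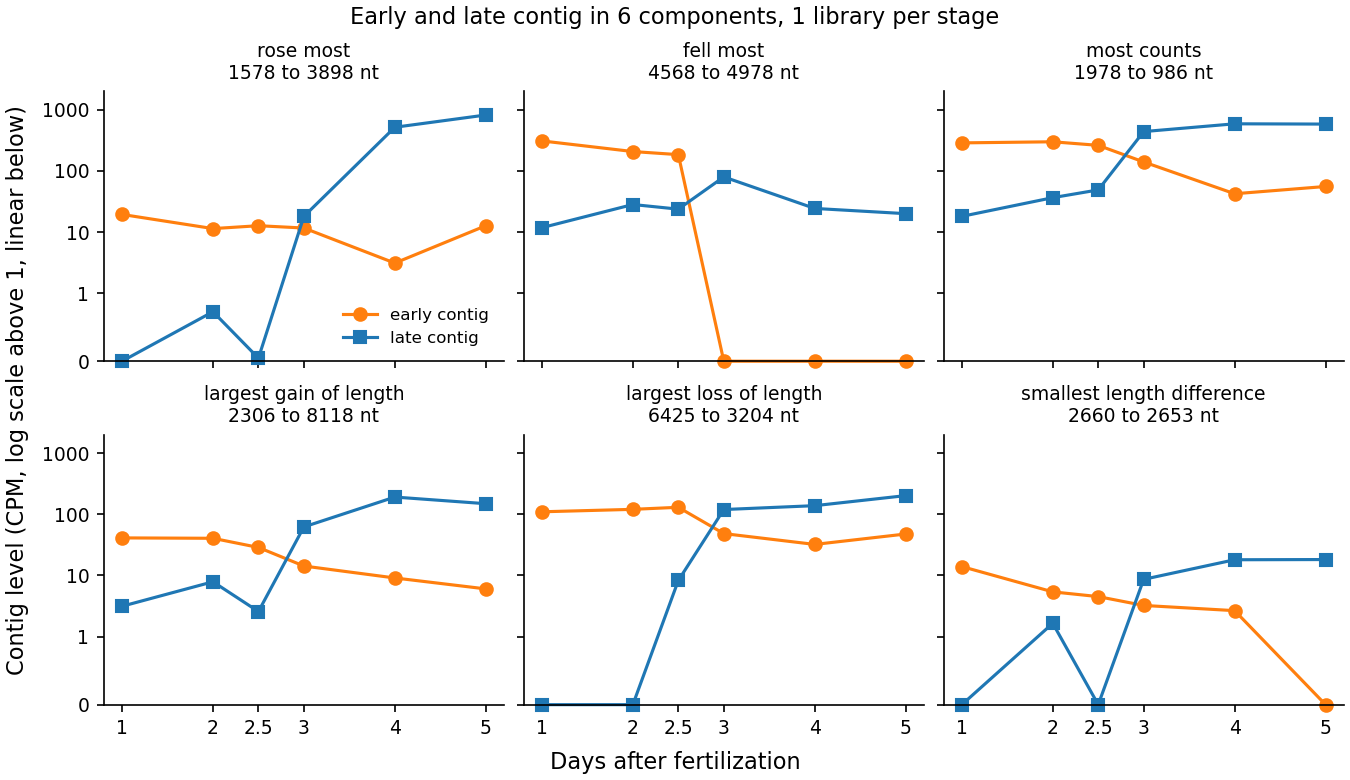
CPM of the early contig (orange circles) and the late contig (blue squares) by days after fertilization in 6 components, 1 library per stage, on a vertical axis that is logarithmic above 1 CPM and linear below. The lines cross between days 2.5 and 3 in every panel; in the component that fell most the early contig went from 184 CPM to 0 counts while the late contig stayed between 11.8 and 79.6 CPM.

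In other members the total differed less between day 1 and day 5. The member with the most counts, 57018 over the 6 libraries in 5 contigs, moved from a contig of 1978 nt to one of 986 nt. Its early contig had 287, 299, 261, 140, 42.2 and 55.5 CPM over the stages, and its late contig had 18.0, 36.5, 48.8, 438, 587 and 581. The whole component was 1.69-fold higher at day 5 than at day 1 (1.64 to 1.74). A component of 14 contigs went from a contig of 4135 nt to one of 1237 nt, the largest proportional loss of length. Its late contig had 0 counts at days 1, 2 and 2.5 and then 25.6, 97.6 and 69.6 CPM, at least 479-fold higher against a floor of 3 counts in each early library. Its total was nearly the same at both ends of the series, with 89.5 CPM at day 1 and 90.3 at day 5. It was not steady between them, with 47.8, 42.6, 41.5 and 108 CPM at the stages from day 2 to day 4.

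In a component of 5 contigs with an early contig of 3722 nt and a late one of 3740 nt, the change was abrupt. The early contig had 604, 801 and 955 counts at days 1, 2 and 2.5, and 0.99, 0 and 0 counts at days 3, 4 and 5. The late contig had 195, 203 and 0 counts, and then 898, 394 and 187. At day 2.5 the late contig was thus assigned 0 counts, after 195 and 203 at days 1 and 2. All 9 nonzero values of the 2 contigs were not whole numbers, so fragments had been divided among contigs. Whether the gap came from that division was not tested. The component of 2 contigs with the smallest difference in length, 2660 and 2653 nt, also had a gap at day 2.5. Its late contig had 0, 33.5, 0, 158, 294 and 247 counts over the stages, and its early contig had 353, 109, 100, 59.0, 43.3 and 0.

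By count shares, the late contig was about as often the shorter as the longer one. It was longer than the early contig in 17 components and shorter in 21, with a median log2 ratio of late to early length of -0.02. Of the 37 components that met the rule with shares from the deposited TPM, the late contig was longer in 10, with a median of -0.15. The rule read count shares and not lengths, but a longer transcript gives more fragments, so the choice was not independent of length. Early contigs ranged from 659 to 7469 nt with a median of 2250, and late contigs from 593 to 8118 nt with a median of 2382. The median difference, without sign, was 418.5 nt, and its range was 7 to 5812 nt. In 13 components the late contig was 10% or more longer, in 12 it was 10% or more shorter, and in 13 the lengths were within 10% of each other.

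By count shares the large differences went both ways. The late contig was 2-fold or more longer in 6 components and 2-fold or more shorter in 3. All 6 with the longer late contig missed the 60% rule when shares were taken from the deposited TPM. Of the 3 with the shorter one, 2 met it. The 6 include both components numbered comp292545. The largest gain was from 2306 to 8118 nt, in a component of 3 contigs. There the early contig had 41.2, 40.6, 28.7, 14.3, 9.11 and 6.04 CPM over the stages and the late contig 3.14, 7.90, 2.58, 62.3, 191 and 149. The largest loss was from 6425 to 3204 nt, in a component of 2 contigs. Its early contig had 110, 121, 130, 48.4, 32.2 and 47.7 CPM, and its late contig 0 counts at days 1 and 2 and then 8.29, 120, 138 and 202 CPM.

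For comparison, 969 other eligible components had a different leading contig in the summed early and the summed late counts but did not meet the switch rule. No share limit was set for them. In these the late contig was longer in 45.7%, against 44.7% of the members, and the median log2 length ratio was -0.01. Lengths were within 10% of each other in 47.0% of them and in 34.2% of the members. The 969 held more contigs, with a median of 5 per component against 3 in the members. No test was made of these differences.

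**Figure D4:**
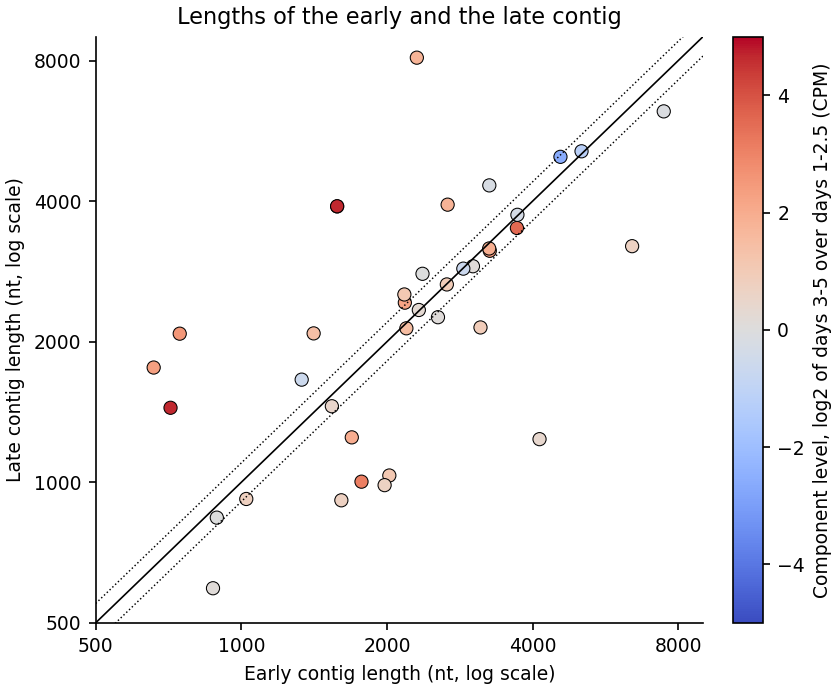
Length of the early contig (horizontal axis) against that of the late contig (vertical axis), both in nt on log scales, 1 point per component, coloured by the log2 change of the component's CPM from the early to the late stages. The solid line marks equal lengths and the dotted lines 10%; 17 points lie above the solid line and 21 below, and the 2 components with contigs of 1578 nt overlap.

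A change in length alters what a count means, because a longer transcript gives more fragments. Of the 38 components, 23 also met the rule when shares were taken from the deposited TPM, and in 31 the late contig held less than 50% of the TPM at every early stage and more than 50% at every late stage. Where the late contig was 10% or more longer, the median component level was 1.80 higher on the log2 scale by CPM and 0.48 higher by TPM. Where it was 10% or more shorter, the values were 0.72 and 0.80. Where the lengths were within 10%, they were 0.31 and -0.30. The 2 measures have different zero points: across all eligible components the median TPM change was -0.56, against -0.02 for CPM. With library totals it was -0.46, and which zero is right was not tested. In the component with the gain from 2306 to 8118 nt the level was 1.79 higher by CPM while the TPM change was -0.30.

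As whole components, the members were more often higher than lower at the late stages. By CPM the mean of days 3 to 5 exceeded that of days 1 to 2.5 in 29 of 38, with a median log2 change of 0.83 (quartiles 0.12 and 1.95). The median over members was 31.3, 34.2, 32.1, 55.3, 80.2 and 70.6 CPM at the 6 stages, while the median eligible component lay between 35.2 and 41.6 CPM. The sum holds the same counts that the rule read, and a late contig that overtakes an unchanged early one must raise it, so the level is not independent of the choice. At the late stages 17 members were 2-fold or more higher, or 44.7%, against 20% of the eligible components. Only 2 were 2-fold or more lower, or 5.26%, against 18.1%, and 19 stayed within 2-fold.

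The level change differed with the way in which the switch came about. The 19 components in which only the late contig passed 4-fold, as a gain, had a median log2 change of 1.80, and 14 of them were 2-fold or more higher. The 8 with an exchange had a median of 0.57, and 1 was 2-fold higher. The 5 in which only the early contig passed 4-fold, as a loss, had a median of -0.63, and both members that were 2-fold lower were among them. The 4 in which both contigs stayed within 4-fold lay between -0.10 and 0.47. These differences follow in part from how the classes were defined.

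With the deposited TPM fewer members were higher at the late stages, and so were fewer of the eligible components. By that measure 24 of 38 members were higher, with a median log2 change of 0.46, against -0.56 over all eligible components. Past 2-fold, 11 members were higher, or 28.9%, and 5 were lower, or 13.2%. The eligible components gave 9.86% higher and 34.2% lower past 2-fold. The sign differed between CPM and TPM in 5 members. Other scalings of the counts gave a median of 0.97 with DESeq2 size factors, where the median of all eligible components was 0.11, and of 0.39 with library totals, where it was -0.46.

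**Figure D5:**
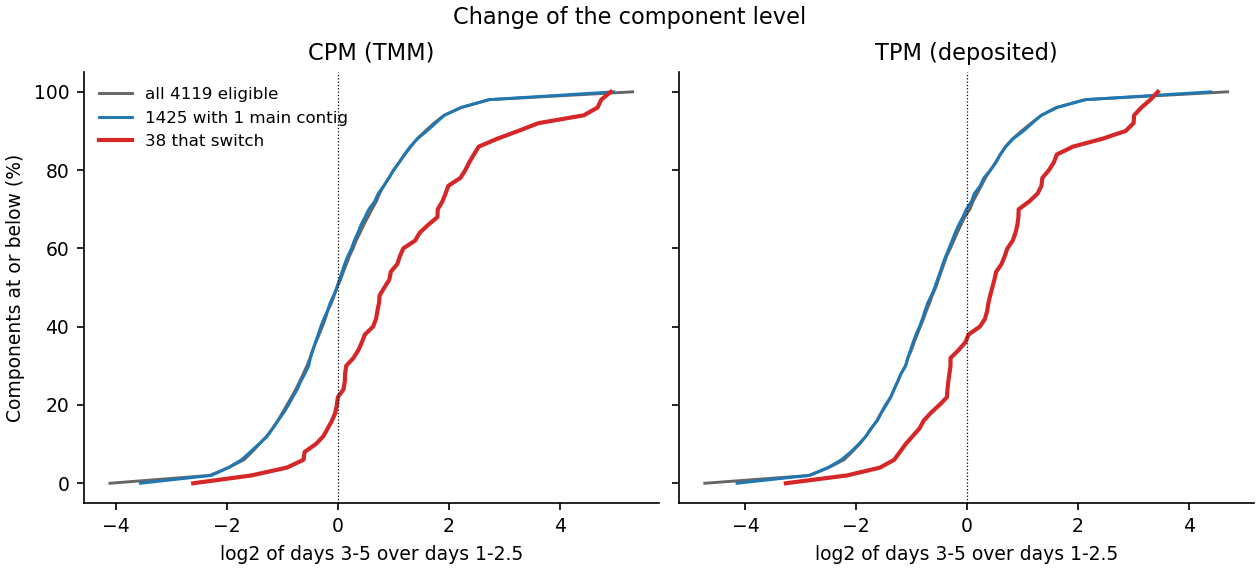
Cumulative share of components (%, vertical axis) by log2 change of the component level from days 1 to 2.5 to days 3 to 5 (horizontal axis), by CPM on the left and by the deposited TPM on the right. The red line of the 38 members, with a median of 0.83 by CPM and 0.46 by TPM, lies to the right of the lines, except at their upper ends, of all eligible components and of those with 1 main contig throughout, whose lines nearly coincide.

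Between day 1 and day 5, 9 members were called 4-fold higher and 1 was called 4-fold lower, with 0.5 CPM added to both levels and a counting interval of the fold that excluded 1. Among the eligible components 8.93% were higher and 8.52% lower by this rule, and among all 31144 components with 60 or more counts 16.6% and 12.4%. Days 1 and 5 lie on either side of the switch, so this comparison is not independent of the choice of members. The member called lower was lcl|comp290609_c1. Without the added 0.5 CPM, the 9 called higher ranged from 4.32-fold to 80.1-fold, and 1 further member was 4.04-fold higher (3.68 to 4.44).

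Few members changed 4-fold in total across a single step. From day 2.5 to day 3, where every main contig changed, 5 of 38 components, or 13.2%, were 4-fold higher and 0 lower. Among the eligible components 2.55% were higher and 0.534% lower. The members were chosen by this step and the totals hold the same counts, so the comparison is not independent of the choice. The largest of these 5 was a component with contigs of 1772 and 1003 nt, which had 22.2 CPM at day 2.5 and then 468, 68.3 and 49.1. It was also the member called 4-fold lower from day 3 to day 4, a step at which 3 members were higher and 1 lower against 0.68% and 0.971% of the eligible. The 3 higher were both components numbered comp292545 and a component with contigs of 1610 and 915 nt, at 7.47 CPM at day 3 and 38.7 at day 4. No member was called from day 1 to day 2 (0.534% of the eligible higher and 0.607% lower), from day 2 to day 2.5 (0% and 0.0243%) or from day 4 to day 5 (0.316% and 0.121%).

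The members held few contigs, as the eligible components did. They had 2 to 14 contigs with a median of 3, and 16 of 38, or 42.1%, had only 2, against 36.4% of the eligible components, whose median was also 3. Their total counts over the 6 libraries ranged from 839 to 57018 with a median of 7762, against 4952 for the eligible. Together they took 0.316% of the first library's counts and 0.607% of the last.

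Most of the contig values held fragments divided among contigs before deposit. Of the 433 nonzero values of the early and late contigs, 360, or 83.1%, were more than 0.005 away from a whole number, which happens where 1 or more fragments match several contigs and are shared out; how many of the counts were divided was not analysed here. For the leading 2 contigs of all eligible components the share was 91.8%. It was 91.7% in the 13 members with lengths within 10% and 78.8% in the other 25. The intervals given above do not cover this division, and neither do the folds and shares set by a floor of 3 counts. Its part in the switches was not tested. The same holds for differences in the parents or embryos behind each library, on which the labels are silent.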

How the data were processed

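RNA was measured in 6 whole-embryo libraries, 1 per stage, grouped by the stage in the labels. The authors deposited, for every contig, an expected count, an estimate of its fragments that is not normalized; it was made with RSEM per the submitters' processing notes. The deposited TPM, per the file headers, is divided by effective length and scaled to 1000000 per library. Assembler, aligner and versions: not given in the sources used here. The FPKM column was not used.

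Contig counts were summed by component. Scaling factors were computed with edgeR 4.0.16 (TMM) on rounded sums of components with a total of 60 or more counts, and ranged from 0.818 to 1.20. Alternatives used DESeq2 1.42.0 size factors, library totals and the deposited TPM. Levels are CPM with a pseudocount of 0.5 for log2 changes, which understates the change of low components. A 4-fold call also needed a fold whose exact Clopper-Pearson interval (95%, counting error) excluded 1. Below 3 counts a contig was taken as undetected. The switch rule and fold rule were also run on simulated counts with counting error alone. These held no division of fragments among contigs and no differences between parents or embryos. They could therefore not show how the rules perform on these libraries. R 4.3.3 and Python 3.11.15 were used.

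The components and rules were chosen with earlier results of these data known. By a fixed rule, the 2 members whose total rose most and the 2 that fell most are given by identifier; the others described were the extremes in counts and length, and a few picked after their values were seen. None of the 145913 identifiers matched the 45433 genes of the reference table, so no gene is named.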

Additional observations from a re-analysis of the deposited data

How the results depend on the processing

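No paired analysis was possible because there was only 1 library for each stage. The number of switching components moved with the limits of the rule: 95 with a main contig from 50% of counts, 6 from 75%, 66 with 30 counts in every library and 24 with 300, against 38. All 38 were among the 95 and the 66, and the 6 and the 24 were among the 38, as must follow from looser and stricter limits. With shares from the deposited TPM there were 37, of which 23 were among the 38. Leaving out 1 library at a time gave 40 to 112 components, and could only add to the 38 because it drops conditions. The 112 came without day 3, since that setting drops the limits at day 3: they held the 38, 28 that changed between days 3 and 4, and others under the share or count limit at day 3. The late contig was longer in 42 of 95 components from 50%, 3 of 6 from 75% and 34 of 66 with 30 counts, against 17 of 38. It was longer in 9 of 24 with 300 counts and in 10 of 37 with TPM shares. The median log2 length ratio, -0.02, was -0.28 from 75% and -0.15 with TPM shares, and 0.007 with 30 counts. The median component level of the 38 stayed above 0 under every scaling, pseudocount and left-out library tried, from 0.39 with library totals to 1.01 without day 3, with 0.75 without day 2.5; the members with the number comp292545 counted once, an alternative chosen after seeing the data, gave 0.75. Members 4-fold higher at day 5, 9, were 5 with TPM and 4 at 8-fold, and 2 were lower with TPM against 1. Requiring 75% lowered the share of components that changed main contig to 2.31%, 2.19%, 3.67%, 0.84% and 1.16% over the 5 steps. The causes were not tested unless given. Counts under 3 could not show whether a contig was absent.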
